A study of Mus musculus with 4 samples.

Results

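The Dlx and Msx genes encode homeobox transcription factors, and the 9 entries of the TPM table named Dlx1 to Dlx6 and Msx1 to Msx3 were taken from 55267 entries in all. RNA-seq was done on cultured muscle stem cells (MuSCs), the cells that rebuild skeletal muscle, of female C57BL/6N mice of 9 weeks carrying a Tg(Pax7-EGFP)Tajb transgene. The transgene marks cells that use the Pax7 promoter, and sorting on its green fluorescence after a first day of culture gave the cells used in both groups. The BMP6-stimulated group (2 libraries) received 100 ng/mL BMP6 for 1 h, and the control group (2 libraries) received the vehicle, 4 mM HCl with 0.1% BSA, for the same time. Both groups had spent 6 h without serum with 200 ng/mL of BMPR-1A-Fc, a soluble receptor that binds BMPs, at 3% oxygen. Libraries with the same replicate number share a biological replicate and form a pair. The members were selected on their TPM after BMP6 against control, so these differences are given as a description. Where a member is said to be called, that gives its place in the fit across all genes and is no test of the member.

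Distal-less (Dlx) and muscle-segment-like (Msx) proteins bind DNA through a homeodomain and pattern the limb buds, the facial skeleton and the forebrain. Mammalian Dlx genes lie in pairs whose 2 genes are transcribed toward each other, and the genes of a pair often share enhancers and expression domains in the embryo. BMPs act through receptor kinases that phosphorylate SMAD1, SMAD5 and SMAD9, which enter the nucleus with SMAD4. Msx1 and Msx2 are textbook BMP targets in embryonic tissue, Dlx3 and Dlx5 are BMP-responsive in skin and bone, and MSX1 can repress Myod1 and hold myoblasts undifferentiated.

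The upstream sequences of the members that differed are shown because BMP-activated SMADs bind short GC-rich elements near many of their targets. RefSeq promoter sequences (table build GRCm38.p6) were matched by symbol for 5 of the 9 members, Dlx1, Dlx2, Msx1, Msx2 and Msx3. No sequence was given for Dlx3, Dlx4, Dlx5 and Dlx6. The 250 bases before the RefSeq start of Dlx2 matched GRCm39 exactly once, at chr2:71377099-71377348 on the minus strand, and those of Msx1 at chr5:37981930-37982179, also on the minus strand. Capitals mark GGCGCC (a BMP SMAD element), GGAGCC (a variant of it) and GTCTG (a shorter SMAD element), searched on both strands.
Dlx2: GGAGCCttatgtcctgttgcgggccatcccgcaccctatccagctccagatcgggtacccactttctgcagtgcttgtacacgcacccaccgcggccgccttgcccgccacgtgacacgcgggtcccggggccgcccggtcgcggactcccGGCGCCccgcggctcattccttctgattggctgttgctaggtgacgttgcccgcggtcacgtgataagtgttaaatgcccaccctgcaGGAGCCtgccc
Msx1: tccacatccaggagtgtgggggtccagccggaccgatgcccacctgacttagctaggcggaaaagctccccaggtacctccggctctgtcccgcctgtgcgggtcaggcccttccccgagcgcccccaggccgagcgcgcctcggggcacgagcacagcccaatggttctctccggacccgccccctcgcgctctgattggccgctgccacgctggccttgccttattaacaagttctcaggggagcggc

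The Dlx2 window held 3 marked elements, which did not overlap. The GGCGCC element lay at positions -99 to -94 from the start, and the GGAGCC elements lay at -250 to -245 and at -11 to -6. The Msx1 window held none of these letters. Among 32851 RefSeq promoters, 9.586% held GGCGCC in the same 250 bases, 25.97% held GGAGCC and 42.19% held GTCTG. The Msx2 window held GGAGCC at 2 places, the Msx3 window held GTCTG once, and the Dlx1 window held none of them. TAATTA, a core recognised by many homeodomains, was found once in the Msx2 window and in no window of the other 4 matched members, and 4.84% of all promoters held it. TAATTG, a variant core, was in no member window and in 7.169% of all promoters. When the 50 bases after the start were added, Dlx2 gained 1 GTCTG and Msx1 gained 1 GGAGCC, and the share of all promoters with GGCGCC was 11.87%. All 5 matched windows were rich in CpG, with 24 in Dlx2, 22 in Dlx1, 20 in Msx1, 18 in Msx3 and 16 in Msx2 against a median of 6 over all promoters. The deposited starts of Dlx2 and Msx1 lay 0 and 2 bases downstream of the RefSeq starts, whereas the deposited first exons of Dlx1 and Msx2 began upstream of theirs, so those windows lie inside transcribed sequence and are not printed.

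Dlx2, Dlx3 and Msx1 were higher in both BMP6-stimulated libraries than in both controls, and the other 6 members stayed near or at 0 in all 4 libraries. TPM is a level scaled by transcript length and to the same total in each library, and differences are given as log2(TPM + 1), a scale on which low genes show less than their true change. Of the 9 members, 3 reached a mean of 1 TPM over the libraries and entered the limma fit across all genes, and 6 did not. Dlx2 and Dlx3 were under 1 TPM in both controls and reached that mean only through the stimulated libraries. Their places among the tested and called genes therefore rest in part on the difference described. Calls needed a fold of at least 2 or at most 0.5 on this scale together with a Benjamini-Hochberg adjusted p under 0.1. In limma, 24 of 10645 named entries were called higher (0.225%), and 29 were past the adjusted p in either direction (0.272%). Dlx2 and Dlx3 were among the called and Msx1 was not. Since the choice of members used this contrast, these counts are not read against that background. In these bulk libraries, a change in the number of expressing cells and a change in RNA per cell cannot be told apart.

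**Figure D1:**
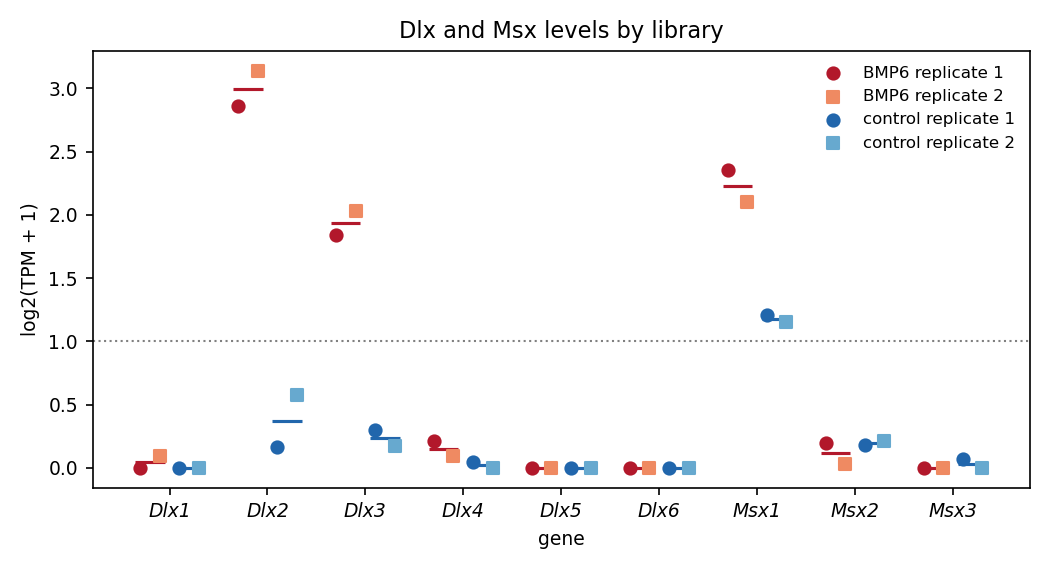
Level of each Dlx and Msx gene as log2(TPM + 1) on the y axis, with red points for the 2 BMP6-stimulated libraries, blue points for the 2 controls, circles for replicate 1, squares for replicate 2 and horizontal bars for group means; the dotted line is 1 TPM. Dlx2, Dlx3 and Msx1 separate by group, and Msx1 is the only member above 1 TPM in the controls.

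Dlx2 (chromosome 2, 71373752 to 71377098, minus strand, GRCm39) encodes a factor best known from forebrain interneurons and the branchial arches. Its TPM was 6.25 in BMP6 replicate 1, 7.82 in BMP6 replicate 2, 0.122 in control replicate 1 and 0.489 in control replicate 2. Both stimulated libraries were thus far above both controls, and the controls differed from each other by more than the stimulated libraries did in relative terms. The mean of the stimulated libraries was 7.04 ± 1.11 TPM, and that of the controls was 0.306 ± 0.259 TPM (SD, n = 2 each). The difference was 2.63 on the log2(TPM + 1) scale (SE 0.20), with 2.69 and 2.57 within the pairs. Without the offset of 1, the TPM ratio was 51.0 in pair 1 and 16.0 in pair 2, so the size of the ratio rests on the low control level. In reads rebuilt from coverage, Dlx2 had 969 and 1162 after BMP6 and 19.3 and 74.5 in controls. Among the 24 called genes, Dlx2 was first by log2 difference and first by the ratio of mean TPM (23.0).

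Dlx3 (chromosome 11, 95010945 to 95016122, plus strand) encodes a regulator of epidermal, hair and tooth differentiation. It reached 2.58 TPM in BMP6 replicate 1 and 3.09 TPM in BMP6 replicate 2, and control replicates 1 and 2 held 0.230 and 0.128 TPM. The groups did not overlap, and the pair with the higher stimulated value had the lower control value. Stimulated libraries averaged 2.84 ± 0.362 TPM and controls 0.179 ± 0.0724 TPM (SD, n = 2 each). The log2 difference was 1.70 (SE 0.16), with 1.54 and 1.86 within the pairs, and the TPM ratios were 11.2 and 24.2. Dlx3 was the called gene with the lowest control level, followed by Dlx2, and it was second to Dlx2 by the ratio of mean TPM (15.8). Both genes passed the filter on mean TPM only through their stimulated libraries. On the log2(TPM + 1) scale Dlx3 was number 11 of the 24. With a pseudocount of 5 in place of 1, its difference shrank to 0.60 and the call was lost, and Dlx2 remained called at 1.18.

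Msx1 (chromosome 5, 37977829 to 37981927, minus strand) encodes a repressor expressed in undifferentiated limb mesenchyme. BMP6 replicates 1 and 2 held 4.13 and 3.29 TPM of Msx1, and control replicates 1 and 2 held 1.31 and 1.23 TPM. The controls lay close together, and both were below both stimulated libraries. Stimulated libraries averaged 3.71 ± 0.588 TPM and controls 1.27 ± 0.0569 TPM (SD, n = 2 each), and the TPM ratios in the pairs were 3.16 and 2.68. The log2 difference was 1.05 (SE 0.16), with 1.15 and 0.95 within the pairs. In the fit with the replicate block, which compares libraries within the pairs, the difference was the same 1.05 with a smaller SE of 0.13, and Msx1 was called, as were Dlx2 (SE 0.13) and Dlx3 (SE 0.15). That fit called 36 of the named entries higher (0.338%).

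The order of the members changed between the groups. In controls Msx1 had the highest level of the 9 genes, and its range of 1.23 to 1.31 TPM lay above that of every other member. Dlx2 (0.122 to 0.489 TPM), Dlx3 (0.128 to 0.230 TPM) and Msx2 (0.133 to 0.158 TPM) followed with overlapping ranges, so their order in controls is not separated by the spread. After BMP6, Dlx2 (6.25 to 7.82 TPM) was first, Msx1 (3.29 to 4.13 TPM) came next and Dlx3 (2.58 to 3.09 TPM) followed, with ranges that did not overlap. The remaining members were below 0.2 TPM in each library.

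All exons of Dlx2, Dlx3 and Msx1 were higher after BMP6. Each of them was quantified as 1 annotated transcript, and coverage, the mean depth of aligned bases, was given for each exon. In BMP6 replicate 1, the 3 exons of Dlx2 had coverage of 17.2, 41.3 and 50.1 from the 5′ end, against 0, 1.04 and 1.15 in control replicate 1. In replicate 2 the values were 23.0, 51.9 and 58.6 after BMP6 and 1.19, 3.12 and 3.92 in the control. Every exon was thus higher after BMP6 in both pairs, and coverage rose toward the 3′ end in each of these libraries. The 3 exons of Dlx3 had 7.32, 11.2 and 19.1 in BMP6 replicate 1 and 0.617, 1.55 and 1.70 in its control, and in replicate 2 they had 6.72, 13.4 and 22.4 against 0, 0.665 and 1.02. The 2 exons of Msx1 had 15.2 and 32.1 against 4.67 and 10.5 in replicate 1, and 13.6 and 23.4 against 2.83 and 10.3 in replicate 2. The ratio of first-exon to last-exon coverage lay between 0.300 and 0.580 in the stimulated libraries for the 3 genes. Coverage is not scaled to library size, and the libraries held between 108.1 and 112 rebuilt reads in units of 1000000.

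**Figure D2:**
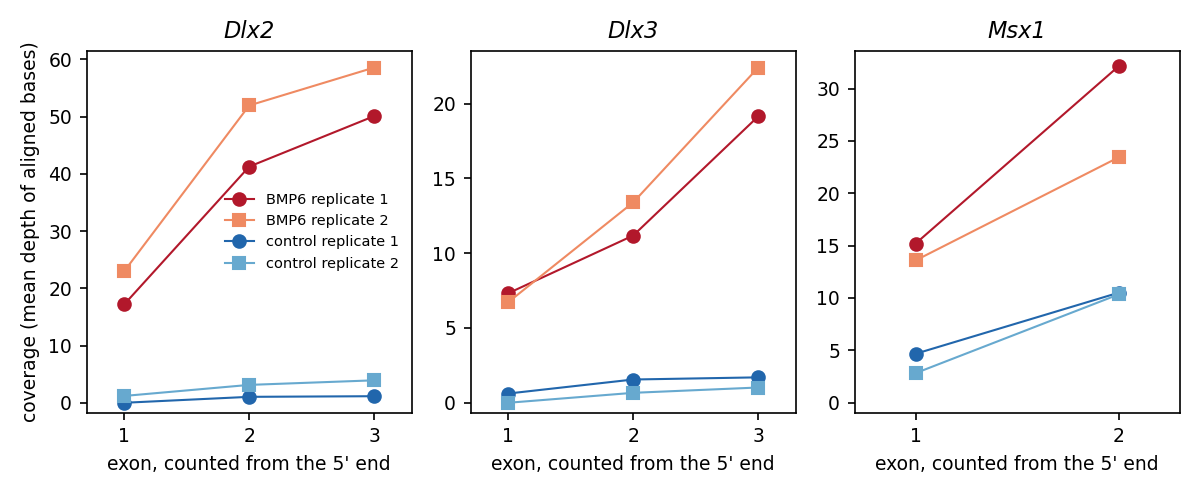
Coverage (mean depth of aligned bases, y axis) of each exon counted from the 5′ end (x axis) for Dlx2, Dlx3 and Msx1, with red lines for the BMP6-stimulated libraries and blue lines for the controls. Both stimulated libraries lie above both controls at every exon of the 3 genes.

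The neighbours within the Dlx pairs differed in level. Dlx1 lies 9427 bases from Dlx2 on the opposite strand (chromosome 2, 71358457 to 71364324) and overlaps with it in forebrain expression. Dlx1 was listed at 0 in 3 libraries and at 0.0673 TPM in BMP6 replicate 2, which came to 16.6 rebuilt reads. The log2 difference of Dlx2 exceeded that of Dlx1 by 2.69 in pair 1 and by 2.47 in pair 2. Dlx4 (chromosome 11, 95031273 to 95037089, minus strand), a placental and branchial arch factor, lies 15150 bases from Dlx3. BMP6 replicates 1 and 2 held 0.158 and 0.0682 TPM of Dlx4, and control replicates 1 and 2 held 0.0353 and 0 TPM, or 22.6, 9.34, 5.14 and 0 rebuilt reads. The stimulated values of Dlx4 were above both controls but remained under 1 TPM, and the gene was not tested. The log2 difference of Dlx3 exceeded that of Dlx4 by 1.38 and 1.76 in the pairs. With the offset of 1, a gene under 0.2 TPM can show little difference, so these excesses do not compare relative changes. Without the offset, the TPM ratio of Dlx4 was 4.47 in pair 1, on few reads, and had no value in pair 2, where the control was 0. Dlx5 (chromosome 6, 6877805 to 6882085) and Dlx6 (chromosome 6, 6863334 to 6868568), a pair known from osteoblasts and the limb ridge, lie 9236 bases apart and were listed at 0 in all 4 libraries. In 2 of the 3 Dlx pairs, then, 1 gene was higher after BMP6 at more than 1 TPM while its neighbour stayed under 0.2 TPM, and in the Dlx5/Dlx6 pair both genes were listed at 0.

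Msx2 and Msx3 were at or below 0.158 TPM in each library. Msx2 (chromosome 13, 53620920 to 53627110, minus strand), a regulator of skull and tooth growth, had 0.150 TPM in BMP6 replicate 1 and 0.0213 TPM in BMP6 replicate 2, and the controls had 0.133 and 0.158 TPM. Its groups overlapped, and the value of BMP6 replicate 2 rests on 3.14 rebuilt reads against 20.7 to 23.9 in the other libraries. The within-pair log2 differences of Msx2 were 0.02 and -0.18. Msx3 (chromosome 7, 139626070 to 139629002, minus strand), a gene of the dorsal neural tube, was at 0.0476 TPM in control replicate 1 and listed at 0 in the other 3 libraries.

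Shared sequence between the members and other genes was searched for, since shared reads can move a level. No other gene in GENCODE M39 shared a stretch of 100 bases at 95% identity with a transcript of Dlx2 to Dlx6 or of Msx1 to Msx3, the limits used for the search. The closest match of Dlx2 was Dlx3, with 82.587% identity over 201 bases, and that of Msx1 was Msx3, with 82.353% over 255 bases. The libraries were unstranded, so reads of overlapping genes on opposite strands cannot be told apart. Dlx2, Dlx3 and Msx1 overlapped no annotated gene, whereas Dlx1, Dlx4, Dlx6 and Msx2 overlapped antisense noncoding genes.

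Of the noncoding partners, 4 were found in the table and 1 reached a mean of 1 TPM. Dlx1as, the antisense RNA across the Dlx1 gene, had 1.30 and 1.23 TPM in the stimulated libraries and 0.847 and 1.77 TPM in the controls, and its groups overlapped. Its log2 difference was 0.00 (SE 0.22, adjusted p = 1.00 in limma), with 0.31 and -0.31 within the pairs. All 6 of its exons inside the span of Metap1d, a gene at about 20 TPM on the other strand, had coverage, and all 3 exons outside that span had 0, so in these unstranded libraries the reads of both genes cannot be told apart. Dlx4os was at 0.186 and 0 TPM after BMP6 and at 0.153 and 0 TPM in controls, and Dlx6os1 and Dlx6os2 were listed at 0 in each library.

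The nearest named genes on either side of each locus were measured with the same fit. Of the 12 flanking genes, 7 reached a mean of 1 TPM, and 0 of these 7 had an unadjusted p under 0.05 in limma. None of them was past the adjusted p in limma, where 0.272% of all named entries were. In voom with the replicate block none was either (lowest adjusted p = 0.512). A count of 0 among 7 is near that share and says little about these genes. Metap1d, a mitochondrial methionine aminopeptidase gene 2922 bases from the Dlx1/Dlx2 locus, was at 21.8 and 23.9 TPM after BMP6 and at 19.6 and 22.6 TPM in controls (log2 difference 0.11, SE 0.12, adjusted p = 1.00). Itga3, an integrin gene 43318 bases from the Dlx3/Dlx4 locus, had a log2 difference of -0.17 (SE 0.15, 95% interval -0.54 to 0.20, adjusted p = 1.00), and Tac4 on the other side of that locus was not tested, at 0.815 and 0.750 TPM after BMP6 and 0.508 and 0.318 TPM in controls. Stx18, a vesicle fusion gene 214159 bases from Msx1, was at 31.0 and 25.6 TPM after BMP6 and at 30.4 and 25.7 TPM in controls (log2 difference 0.01, SE 0.14, adjusted p = 1.00). The other 4 tested neighbours, Sem1, Sdhaf3, Sptlc1 and Zfp511, had log2 differences of 0.06, -0.03, 0.13 and 0.00. Platr26, Cytl1, Drd1 and Caly were below 0.2 TPM in every library.

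**Figure D3:**
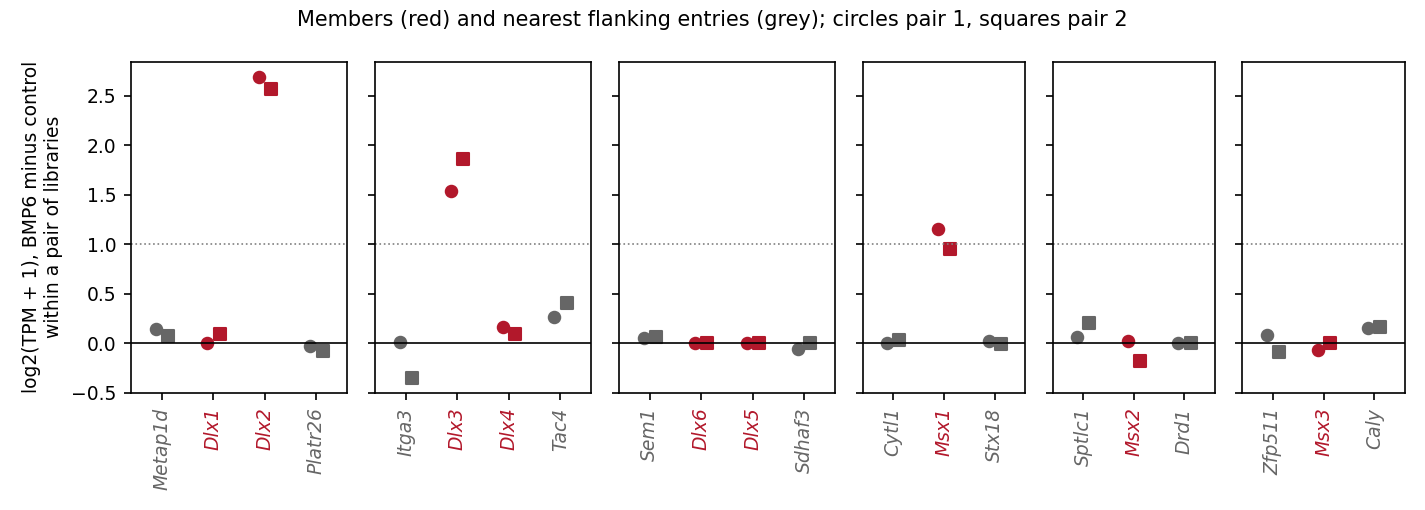
Within-pair difference in log2(TPM + 1), BMP6 minus control (y axis), of each member (red) and of the nearest named gene on either side of its locus (grey), with circles for pair 1 and squares for pair 2; the dotted line is a difference of 1. Dlx2 and Dlx3 lie above 1.5 in both pairs, Msx1 lies near 1, and their neighbours in the genome lie between -0.35 and 0.41.

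Other homeobox genes were counted from a fixed list of 109, of which 107 were found and 28 reached a mean of 1 TPM. In limma, 0 of the 28 were past the adjusted p, which is near the 0.272% of all named entries that were. An unadjusted p under 0.05 was found for 5, a count not set against all entries here and not read as a result. Their log2 differences were above 0 for 23 and below 0 for 5, with a median of 0.19 beside 0.02 over all 13128 entries tested. With the replicate block 1 of them was called, where 0.338% of the named entries were called higher. In voom on rebuilt reads with the block 2 of them were called, of 56 entries called higher in all. Six2, a progenitor factor of kidney and face, was called in the latter (adjusted p = 0.0377), and it is named after its value was seen. Irx3, a limb and neural patterning gene, had a log2 difference of 0.70 (SE 0.14, adjusted p = 0.505), and the lowest were Pbx3 at -0.15 and Meis2 at -0.09 (adjusted p = 1.00 for both), both of the TALE class that partners other homeodomain factors. Ordered by log2 difference, Dlx2 and Dlx3 were first and second of the 31 homeobox genes tested. Both were under 1 TPM in controls and were tested only through their stimulated libraries. A difference above 1 was not limited to the members, since 1 of the 28 others was above 1 in both pairs. By level, 34 of the 107 other homeobox genes had a higher mean TPM than Dlx2 in controls, and 12 did after BMP6. For Dlx3 these numbers were 39 and 22, and for Msx1 they were 24 and 19.

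**Figure D4:**
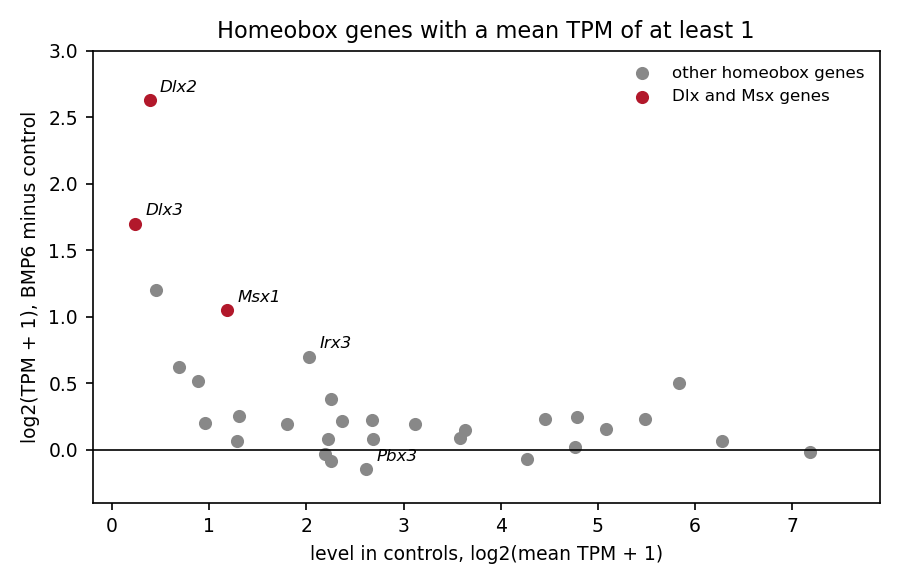
Difference in log2(TPM + 1), BMP6 minus control (y axis), against the control level as log2(mean TPM + 1) (x axis) for the 31 homeobox genes with a mean of at least 1 TPM, with Dlx and Msx genes in red and others in grey. Dlx2, Dlx3 and Msx1 lie at the low end of the control levels and above a difference of 1, as does 1 of the other homeobox genes. The mean is over all 4 libraries, so a gene well under 1 TPM in controls is drawn only if its stimulated level is high. Low control levels with small differences are therefore missing by the choice of genes.

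The BMP pathway around the members was described with 2 further lists. Of 15 textbook BMP target genes, 13 were tested and 7 were called higher in limma, where 0.225% of all named entries were. Their median log2 difference was 1.58 beside 0.02 over all tested. The list was chosen with earlier results of these data known, so these values are a description. Id3 and Id1, inhibitors of myogenic bHLH factors, had the highest differences at 2.46 (SE 0.13, adjusted p = 0.0104) and 2.33 (SE 0.17, adjusted p = 0.0164), and Id2, Smad7, Atoh8, Skil and Hey1 were also called. Bambi, a BMP pseudoreceptor, and Nog, a secreted BMP antagonist, had the lowest, at -0.06 (SE 0.17, adjusted p = 1.00) and 0.75 (SE 0.14, adjusted p = 0.427). Of 13 BMP receptors, coreceptors and SMADs, 12 were tested, with 1 at an unadjusted p under 0.05 and 0 called in voom. In limma 0 of the 12 were past the adjusted p, which is near the 0.272% of all named entries that were. Bmpr1a (0.29) and Smad1 (0.27) had the highest log2 differences of that list, and Rgmb (-0.32) and Bmpr1b (-0.24) the lowest, each with an adjusted p of 1.00.

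None of the genes listed as partners or targets of DLX and MSX proteins passed the test in limma. Of 24 listed, 16 were tested and 0 were past the adjusted p, where 0.272% of all named entries were. A count of 0 among 16 is near that share and says little about the list. The median log2 difference was 0.03, and 1 gene had an unadjusted p under 0.05. That gene was Sp7, the osteoblast factor osterix, at 1.41 and 2.25 TPM after BMP6 and 0.420 and 0.717 TPM in controls (log2 difference 0.84, SE 0.21, adjusted p = 0.878), and it was the single gene of the list called in voom with the replicate block (adjusted p = 0.00359). Pax3 (0.24), a gene of limb muscle precursors, came next, and H1f5 (-0.17), a linker histone, and Ccnd1 (-0.13), a G1 cyclin, were lowest, each with an adjusted p of 1.00. Gad1, Gad2 and Ibsp, which DLX proteins regulate in interneurons and bone, were listed at 0 in all 4 libraries.

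The genes whose profile over the 4 libraries was most like that of each tested member were found by Euclidean distance between centred log2(TPM + 1) values. For Dlx2 they were Id3 (distance 0.39), Id1 (0.45) and Grhl1 (0.50), for Dlx3 they were Ccn2 (0.16), Rgs3 (0.19) and Klf10 (0.28), and for Msx1 they were Dusp8 (0.08), Gadd45b (0.10) and Nfkbia (0.16). With so few libraries, this distance depends largely on the difference between BMP6 and control by which the members were selected. The nearest genes are thus mainly those with a difference of similar size, and no shared regulation was tested. Likeness of profile on this scale did not mean likeness of TPM ratio, since low genes show less than their true change on it. The ratio of mean TPM was 15.8 for Dlx3, against 3.38 for Ccn2, 3.8 for Rgs3 and 3.54 for Klf10. For Dlx2 the ratio was 23.0, against 5.51 for Id3, 4.998 for Id1 and 11.03 for Grhl1. Likeness of profile did not mean likeness of level either. Id3 was at 841 and 730 TPM after BMP6 and 127 and 158 TPM in controls. Grhl1, a grainyhead factor of epithelia, was near Dlx2 in level too, at 4.68 and 6.67 TPM after BMP6 and 0.223 and 0.805 TPM in controls. Dusp8, a MAP kinase phosphatase, was the nearest of all to a member, at 15.7 and 12.8 TPM after BMP6 and 6.65 and 6.67 TPM in controls, and replicate 1 had the higher stimulated value in both genes.

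The libraries were checked for the cell type and for other cells. The myogenic markers Pax7, Myf5, Myod1, Myog and Des were all present. In limma 0.272% of all named entries were past the adjusted p, and none of the 5 markers was. Their summed level was 6155 to 6554 TPM after BMP6 and 6288 to 7173 TPM in controls. Most of it was Myog, which the study uses to mark the onset of differentiation. Myog was at 4400 and 5001 TPM after BMP6 and at 4452 and 5472 TPM in controls. Pax7, the gene behind the sort, was at 8.29 to 11.7 TPM. The summed level of 6 fibroblast markers was 124 to 188 TPM after BMP6 and 147 to 198 TPM in controls. Col3a1 (69.4 to 109 TPM), Col1a1 (34.3 to 62.9 TPM) and Ly6a (18.7 to 24.1 TPM) made up most of it. Dcn was at 0.955 to 1.92 TPM, and Pdgfra and Lum were under 0.3 TPM. Markers of glia or neural crest and of epithelium, where several Dlx genes are known, and of endothelium summed to at most 0.601, 0.432 and 0.298 TPM in any library, with Foxd3 and Krt5 listed at 0. The 3 immune markers summed to 0.923 to 1.68 TPM. The 3 osteoblast markers summed to 1.72 and 2.46 TPM after BMP6 and to 0.420 and 0.976 TPM in controls, mostly through Sp7, while Ibsp was listed at 0, and their part in the Dlx and Msx differences was not tested. Mitochondrial genes took 3.8% to 4.285% of TPM, and 13002 to 13203 entries per library reached 1 TPM.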

How the data were processed

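RNA-seq values of 4 libraries of cultured mouse MuSCs were analysed, 2 BMP6-stimulated and 2 controls, grouped by the sample labels. The authors made the libraries with an unstranded full-length cDNA protocol without molecular identifiers, aligned paired reads with STAR 2.7.11a to GRCm39 (GENCODE M32), handled alignments with SAMtools 1.17 and quantified a merged annotation with StringTie 2.2.1. The deposited joined tables give TPM and FPKM for each gene, as the authors quantified them. In the deposited files of single libraries, the signal used here is coverage of transcripts and exons, an average depth over aligned bases that is not scaled to library size. Reads were rebuilt as coverage times length divided by 100 bases and came to 108.1 to 112 per library in units of 1000000. They count both ends of a pair and are not independent molecules, and the TPM values carry no counting interval.

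The members and gene lists were chosen with earlier results of these data known. Named genes of each list were those past the adjusted p, the 2 highest and the 2 lowest by log2 difference, plus the 3 nearest by profile of each member with a mean of at least 1 TPM and the nearest named gene on each side of a locus. The fit was limma 3.58.1 in R 4.3.3 (eBayes with a trend, two-sided) on log2(TPM + 1) over the 13128 entries that averaged 1 TPM or more, with Benjamini-Hochberg adjustment over all of them. Predicted genes, microRNAs, Riken clones, opposite-strand transcripts and pseudogenes (by the prefixes and suffixes that the study's methods list) and entries without a name were left out of the calls. The labels tie same-numbered libraries to 1 biological replicate. After the group means were removed, same-numbered libraries correlated at 0.563 across 13128 entries, which are not independent. The unblocked fit was the main one because the study's description of its differential expression step names no pairing term, although its heatmaps used a paired design. P-values rest on the spread between these 2 replicates, which eBayes moderates with the spread of the other entries. They cover no further replicates, and no exact permutation of 4 libraries can give a p under 0.333. Transcript copies were searched with blastn 2.17.0 against GENCODE M39 on the same build. The alternatives were other pseudocounts and filters, FPKM, quantile normalization, eBayes without a trend, the replicate block, voom on rebuilt reads, an adjusted p of 0.05 and leaving out each library. Values of some genes that the naming rule covers are not reported here.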

Additional observations from a re-analysis of the deposited data

How the results depend on the processing

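Dlx2 was higher after BMP6 under each of the 16 settings that tested it (1.18 to 4.80 on the log2 scale of each setting) and Msx1 under each of 16 (0.47 to 1.53), and Dlx3 under each of 15 (0.60 to 4.00). Settings that change only the filter, the SE or the threshold cannot alter these differences. None of the 3 could be tested at a mean TPM of at least 5, and Dlx3 fell below the filter in FPKM. Calls were lost without a filter on low values for Dlx2 (2.63) and Dlx3 (1.70), where 1 gene was called in all and 0 BMP targets, and with a pseudocount of 5 for Dlx3 (0.60). Msx1 gained a call with the replicate block (1.05) and in voom with the block (1.53), and the block ended no call of a member. The number called higher, 24, was 15 with a pseudocount of 5, 15 with entries averaging 5 TPM or more, 12 in eBayes without a trend, 56 in voom with the block and 11 at an adjusted p of 0.05, and the number called lower, 0, was 1 with the block and 7 in voom with the block. Leaving out each library gave 17 to 30 higher and 1 to 7 lower, 2.43 to 2.83 for Dlx2, 1.60 to 1.80 for Dlx3 and 0.92 to 1.18 for Msx1. The excess of Dlx2 over Dlx1 (2.58) was 3.92 with a pseudocount of 0.1, 1.17 with 5 and 1.96 in FPKM, and 2.38 to 2.79 over the libraries left out. That of Dlx3 over Dlx4 (1.57) was 2.57, 0.57 and 1.09 in the same settings. BMP targets called (7) numbered 4 in eBayes without a trend and at an adjusted p of 0.05 and 11 in voom with the block. Other homeobox genes called numbered 1 with the block and 2 in voom with the block, and DLX or MSX partners 1 in voom with the block. The cause was not tested. Levels under 1 TPM rest on few reads, which limits Dlx1, Dlx4, Msx2, Msx3 and the control values of Dlx2 and Dlx3.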
